A study of Mus musculus with 19 samples.

Results

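Of the 23420 genes counted in mouse pluripotent stem cells, 32 have a symbol that ends in "os", with or without a single digit, and for 12 of them the symbol without this ending is a gene of the same files. The 12 are Crxos1, Dio3os, Dnm3os, Emx2os, Fam120aos, Foxl2os, Otx2os1, Pax6os1, Ppifos, Six3os1, Slc7a6os and Vax2os. The ending stands for opposite strand, and in GENCODE M21 (build GRCm38) all 12 lie on the strand opposite their partner, with Crxos1 listed there as Crxos. Together they took 2994 read pairs over the 19 libraries, 0.0839% of all gene counts, against 642 on the 12 partners. Ppifos alone held 89.1% of the os counts.

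RNA was sequenced from 14 induced pluripotent stem cell (iPSC) libraries, 3 embryonic stem cell (ESC) libraries and 2 epiblast stem cell (EpiSC) libraries, 1 library for each line or clone in each medium. The iPSC came from embryonic fibroblasts of NOD/ShiLtJ, WSB/EiJ and 129S1/SvImJ mice, pooled within litters, that carry a lentivirus with Oct4, Klf4, Sox2 and Myc, which was not removed. There were 2 male and 2 female clones of NOD/ShiLtJ and of WSB/EiJ in 2iS (serum and LIF medium with the GSK3B inhibitor CHIR99201 and the MEK inhibitor PD0325901), and 2 male and 2 female clones of 129S1/SvImJ in ESC/LIF medium. The 129S1/SvImJ males, clones 1 and 17, were sequenced again after a move to 2iS. They were at passages 21 and 20 in ESC/LIF and 31 and 30 in 2iS, so medium and passage cannot be told apart there. The iPSC had at least 16 passages and were depleted of feeder fibroblasts before harvest. The ESC were male lines of the NOD, WSB and 129 backgrounds grown with both inhibitors. The EpiSC, cells of the later, primed epiblast, were male lines of the NOD and 129 backgrounds in their own EpiSC medium. Comparisons with EpiSC are thus also comparisons of medium, and iPSC of both sexes are set against male ESC and EpiSC. The ESC were at passage 6 and the EpiSC at 38 (NOD) and 16 (129), and both were supplied by other laboratories. Comparisons with ESC are therefore also comparisons of passage, and cell state goes together with the laboratory of origin. Conditions follow the sample titles, which the source names contradict in all 19 libraries.

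Opposite-strand transcripts are mostly long noncoding RNAs named for a protein-coding neighbour. Some start beside the neighbour's promoter and run away from it, and others run through its body, so that the exons of both can share genomic bases. A read pair from shared bases can be given to the right gene only by its strand. The libraries were made with a stranded kit, and whether the counting used the strand is not given in the sources used here. Counts on an os transcript may therefore come from the mRNA of its partner, and which of the 2 they came from was not tested. The same limit applies to the partners, the markers and every other gene below: in a stranded library counted with the opposite strand setting, the counts on a gene would be those of the other strand.

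Gene counts ran from 92996 to 567432 read pairs in a library, which is 1.15% to 1.74% of the uniquely aligned read pairs in 17 libraries and 5.59% and 5.62% in the NOD/ShiLtJ male iPSC. Genes whose exons overlap exons on the other strand, 24.6% of the 23054 genes matched to GENCODE, took 61.3% to 76.8% of the matched counts in the 17 libraries, and for the NOD/ShiLtJ males this was 38.3% and 38.8%. The summed level of 8 naive pluripotency markers was 0.337 and 0.429 counts scaled to 1000000 uniquely aligned read pairs (aligned CPM) in the EpiSC and 16.4 to 32.7 in the 12 other iPSC. It was 11.0 to 22.9 in the ESC and 200 and 244 in the NOD/ShiLtJ males. Primed markers summed to 1.35 and 3.50 aligned CPM in the EpiSC, 0.562 to 1.54 in the ESC and 0 to 1.09 in the 12 other iPSC. They summed to 2.86 and 3.76 in the NOD/ShiLtJ males, where 2.47 and 3.46 of this came from Lefty1. On this scale the primed list did not separate the males from the EpiSC. For 12 abundant mRNAs the sum was 1845 and 1979 aligned CPM in the males, 183 to 282 in the 12 other iPSC and 69.2 and 141 in the EpiSC. Higher sums in the males were thus not particular to the marker lists. A gene at 0 in a library could have had up to 3 counts, which is 0.184 to 0.493 aligned CPM depending on depth. This limit and the intervals on shares cover counting error only.

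Ppifos is a noncoding transcript of 3 exons on chromosome 14 (25696974 to 25701282, minus strand), and Ppif, its partner on the plus strand (25694154 to 25700468), encodes cyclophilin D, the mitochondrial prolyl isomerase that regulates the permeability transition pore. The 1159-base Ppifos transcript shares 152 bases with the coding transcript of Ppif, all of them protein-coding in Ppif and 24.6% of its 618 coding bases. The shared bases form 2 segments. They are printed from the GENCODE M21 transcripts, 5′ to 3′, because read pairs from them can be told apart only by strand. Capitals mark the shared bases of the segment shown and lower case the 15 bases on either side in each spliced transcript. Both segments adjoin in spliced Ppif, so its lower-case bases after segment 1 and before segment 2 belong to the other segment and are shared as well. In each segment the Ppifos capitals are the reverse complement of the Ppif capitals. Segment 1 (chr14:25697573-25697669, 97 bases) is a whole coding exon of Ppif.
Ppif segment 1: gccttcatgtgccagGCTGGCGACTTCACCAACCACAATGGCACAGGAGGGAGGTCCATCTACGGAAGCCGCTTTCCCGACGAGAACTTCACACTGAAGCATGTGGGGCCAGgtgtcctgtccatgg
Ppifos segment 1: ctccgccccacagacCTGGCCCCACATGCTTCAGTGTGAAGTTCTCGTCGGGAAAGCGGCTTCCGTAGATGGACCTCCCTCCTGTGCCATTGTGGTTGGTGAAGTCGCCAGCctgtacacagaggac
Segment 2 (chr14:25698266-25698320, 55 bases) is the first part of the next coding exon.
Ppif segment 2: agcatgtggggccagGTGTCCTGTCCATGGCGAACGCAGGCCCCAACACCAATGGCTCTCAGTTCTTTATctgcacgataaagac
Ppifos segment 2: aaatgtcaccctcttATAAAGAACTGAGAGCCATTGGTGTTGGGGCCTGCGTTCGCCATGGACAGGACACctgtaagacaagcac

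**Figure D1:**
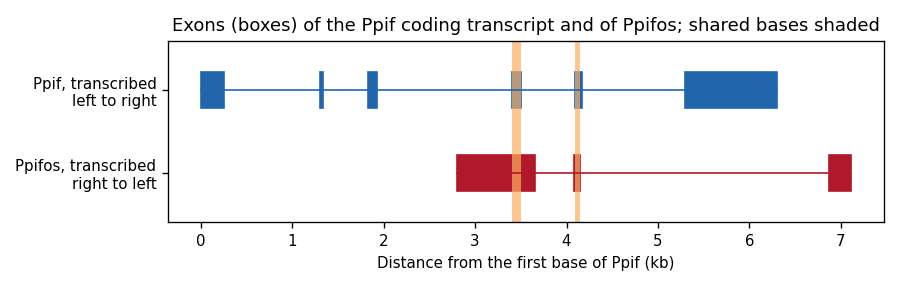
Exons of the Ppif coding transcript (blue boxes) and of Ppifos (red boxes) against the distance in kb from the first base of Ppif, with shared bases shaded. The 2 shaded stretches of 97 and 55 bases cover coding exons of Ppif, and the first exon of Ppifos lies beyond the last exon of Ppif.

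When all Ppif transcripts of the annotation are counted, including 1 that retains introns, 921 of the 1159 exonic bases of Ppifos lie over exons of Ppif. The other pairs overlap less. Emx2os shares 264 exonic bases with Emx2, Otx2os1 154 with Otx2, Six3os1 106 with Six3 and Foxl2os 12 with Foxl2, none of them coding in the partner. The other 7 pairs share none. The 5 pairs with shared bases held 2677 os counts and 133 partner counts, and the 7 without held 317 and 509. Ppifos held 2669 of these 2677 and Ppif 93 of the 133, so the sums with shared bases are nearly those of 1 pair. Of the rest with shared bases, Emx2os (2 against 3), Foxl2os (2 against 12) and Otx2os1 (0 against 25) were below their partners. Six3os1 (4 against 0) was above. Counts on the os transcript exceeded those on the partner in 2 of the 5 pairs with shared bases and in 3 of the 7 without.

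**Figure D2:**
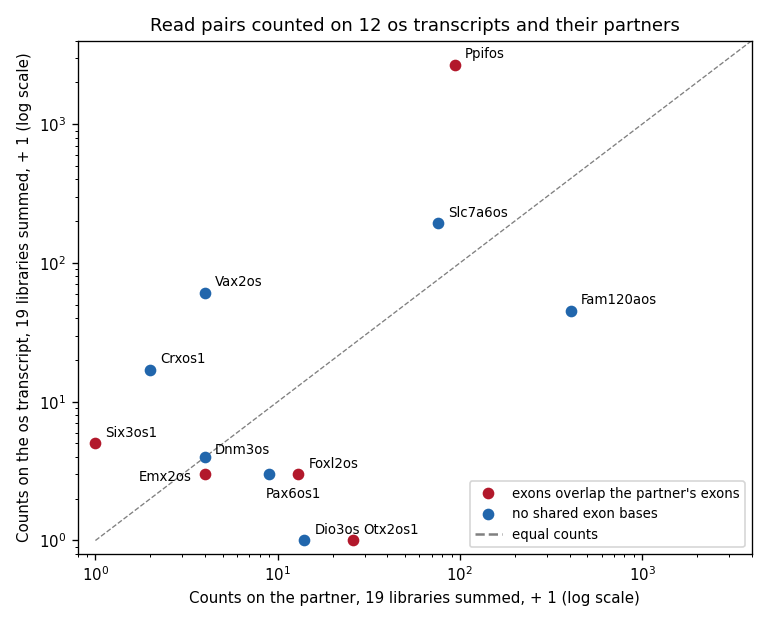
Counts on each os transcript against counts on its partner, both summed over 19 libraries with 1 added and on log axes. Red points share exon bases with the partner, blue points do not, and the dashed line marks equal counts. Ppifos (2669 against 93) stands farthest above the line and Fam120aos (44 against 406) lies below it.

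Ppifos was counted in all 19 libraries. The EpiSC had 146 (NOD) and 200 (129) counts, and the ESC had 84 (NOD), 103 (WSB) and 105 (129). The NOD/ShiLtJ male iPSC had 75 (clone 3) and 102 (clone 35), and the 12 other iPSC had between 80 and 246 with a median of 152. The 12 other iPSC overlapped with each of these groups in raw count, while both EpiSC were above the ESC and the males. The EpiSC libraries were also deeper than these. Per aligned read pair the NOD EpiSC (8.95 aligned CPM) was below the 129 ESC (9.70), the WSB ESC (11.3) and male clone 35 (13.2). The 129 EpiSC was at 13.5. Per kb of exon over all annotated transcripts, Ppifos (1159 bases) had 2303 counts over the 19 libraries and Ppif (5044 bases) 18.4. The coding transcript of Ppif alone has 1549 bases, so the Ppif value depends on this choice.

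Ppif itself was nearly uncounted outside the NOD/ShiLtJ males. It had 0 and 5 counts in the EpiSC, 1, 3 and 1 in the ESC, and 0 to 6 with a median of 3.5 in the 12 other iPSC. The NOD/ShiLtJ males had 18 (clone 3) and 25 (clone 35), above every other library. Ppifos therefore held 98.0% of the counts of the pair in the 17 other libraries pooled (95% Wilson interval 97.4 to 98.5), with a range of 93.3% to 100% across them. In the NOD/ShiLtJ males it held 80.6% and 80.3%, below all 17. Against the 12 other iPSC, the mean share was 80.5% ± 0.233 (SD, n = 2) and 97.8% ± 1.69 (SD, n = 12). An exact two-sided permutation test over the 91 labelings gave p = 0.011, the smallest it can give, and 0.033 after Benjamini-Hochberg adjustment over the 3 pairs with at least 100 counts. The 12 libraries hold 10 clones, since 129S1/SvImJ males 1 and 17 enter in both media. With each clone once (in ESC/LIF for these), an alternative added after seeing the data, the exact permutation test over 66 labelings gave p = 0.0152, again the smallest possible, and an adjusted p of 0.0455. The paper had set both males apart in these same data, as distinct in expression, and left them out of its later comparisons. Tests of the males here and below follow that grouping, so their p-values do not measure chance alone.

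Scaled to uniquely aligned read pairs, Ppifos and Ppif differed in direction. For Ppif the NOD/ShiLtJ males had 1.78 and 3.25 aligned CPM, and the 12 other iPSC ranged from 0 to 0.908, a ratio of means of 7.05. For Ppifos the males had 7.42 and 13.2 and the 12 others ranged from 11.0 to 19.04, a ratio of 0.664, and these ranges overlapped. Among 12 abundant mRNAs, such as Actb and Eef1a1, the same ratio ran from 3.10 to 15.01 with a median of 11.0. The part of the higher share of read pairs on genes in these results was not tested.

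In edgeR with TMM normalization, Ppifos was at 129 CPM ± 49.1 (SD, n = 2) in the NOD/ShiLtJ males and 1014 CPM ± 212 (SD, n = 10) in the other iPSC of the fit, with both males below all 10. The log2 fold change was -2.97 (SE 0.24, edgeR adjusted p = 2.30e-11), where the median of all genes tested was 0.27. Ppifos was the 1 called of 2 os transcripts tested, lower in the males, and 58.9% of all 4784 genes tested were called, 26.6% as lower. With uniquely aligned read pairs in place of the TMM library sizes, 84.4% of genes were called, the log2 fold change of Ppifos was -0.56 (edgeR adjusted p = 0.0152) and the median of all genes moved to 2.66. DESeq2 also called Ppifos and called 34.4% of genes. Ppif did not pass on the TMM scale (log2 fold change 0.61, SE 0.51, edgeR adjusted p = 0.302) and did when scaled to uniquely aligned read pairs (2.99, edgeR adjusted p = 1.00e-06). Among the iPSC, being NOD/ShiLtJ and male went together with the higher share of read pairs on genes, and these cannot be told apart. The male NOD ESC and NOD EpiSC had 1.15% and 1.36% of read pairs on genes and thus did not have the higher share. Replicates were separate clones or lines, 1 library each.

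Slc7a6os is itself protein-coding. It lies tail to tail with Slc7a6, the gene of a cationic amino acid transporter, with 2010 bases between them and no shared exon. Slc7a6os had 12 and 12 counts in the EpiSC, 10, 7 and 14 in the ESC (NOD, WSB and 129), 1 to 12 with a median of 6 in the 12 other iPSC, and 31 and 32 in the NOD/ShiLtJ males (clones 3 and 35). Slc7a6 had 6 and 4 counts in the EpiSC, 0, 2 and 1 in the ESC, 16 and 15 in the males and 0 to 11 with a median of 2 in the 12 others. Both genes were thus highest in count in the males, with no overlap with the other libraries.

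Unlike the Ppif pair, both members of the Slc7a6 pair were higher per aligned read pair in the males. Slc7a6os was at 3.61 aligned CPM ± 0.769 (SD, n = 2) against 0.672 ± 0.409 (SD, n = 12), a ratio of 5.37, and Slc7a6 at 1.77 ± 0.257 against 0.255 ± 0.249, a ratio of 6.93. The share of the pair on Slc7a6os, 67.0% ± 1.504 (SD, n = 2), was within the range of the 12 others, 33.3% to 100% (exact permutation p = 0.692, adjusted p = 0.692). On the TMM scale Slc7a6os did not pass the test (log2 fold change 0.41, SE 0.37, edgeR adjusted p = 0.344). Scaled to uniquely aligned read pairs it was higher (2.79, edgeR adjusted p = 1.08e-08), close to the median of all genes on that scale.

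Fam120aos and Fam120a lie head to head on chromosome 13. Fam120a encodes an RNA-binding protein. In GENCODE M21 their starts are separated by 269 bases, and in RefSeq (GRCm38.p6) by 51. This was the smallest gap in GENCODE among the 4 os pairs whose genes do not overlap. The RefSeq promoter window is printed to show how closely both genes start. It holds the 250 bases before the start of Fam120a (chr13:48968061-48968310, minus strand, 5′ to 3′), with capitals for the 51 bases between the starts.
Fam120a upstream: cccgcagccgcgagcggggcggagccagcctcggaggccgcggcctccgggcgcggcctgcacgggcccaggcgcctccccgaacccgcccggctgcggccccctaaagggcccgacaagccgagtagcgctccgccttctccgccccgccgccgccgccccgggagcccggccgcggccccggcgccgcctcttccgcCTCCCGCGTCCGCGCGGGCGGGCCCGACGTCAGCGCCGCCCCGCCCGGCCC
The window holds 46 CG dinucleotides, against a median of 6 in the same 250-base windows of the table's 32851 promoters, and 0.323% of these windows hold as many.

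Here the partner held most of the counts. Fam120a had 10 and 7 counts in the EpiSC, 10, 12 and 18 in the ESC, 5 to 22 with a median of 11 in the 12 other iPSC, and 114 and 89 in the NOD/ShiLtJ males. Fam120aos had 2 and 1 counts in the EpiSC, 5, 3 and 2 in the ESC, 0 and 1 in the males and 0 to 10 with a median of 1.5 in the 12 others. Fam120a was therefore above all other libraries in the males, and Fam120aos overlapped.

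Per aligned read pair, Fam120a was at 11.4 aligned CPM ± 0.193 (SD, n = 2) in the males. The 12 other iPSC had 1.26 ± 0.412 (SD, n = 12). The ratio of 9.04 lies within the range of the abundant mRNAs. On the TMM scale it was higher in the males (log2 fold change 0.76, SE 0.23, edgeR adjusted p = 0.00536), a call that DESeq2 did not make (adjusted p = 0.183). Fam120aos was below the filter on low counts. Without the filter it was lower in the males (log2 fold change -3.49, SE 1.03, edgeR adjusted p = 0.00474), as was Vax2os (-2.97, SE 0.75, edgeR adjusted p = 0.000725), with 23.5% of 16179 genes called. The share of the pair on Fam120aos averaged 0.556% ± 0.786 (SD, n = 2) for the males against 14.4% ± 10.5 (SD, n = 12), a difference that did not pass (exact permutation p = 0.165, adjusted p = 0.247).

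**Figure D3:**
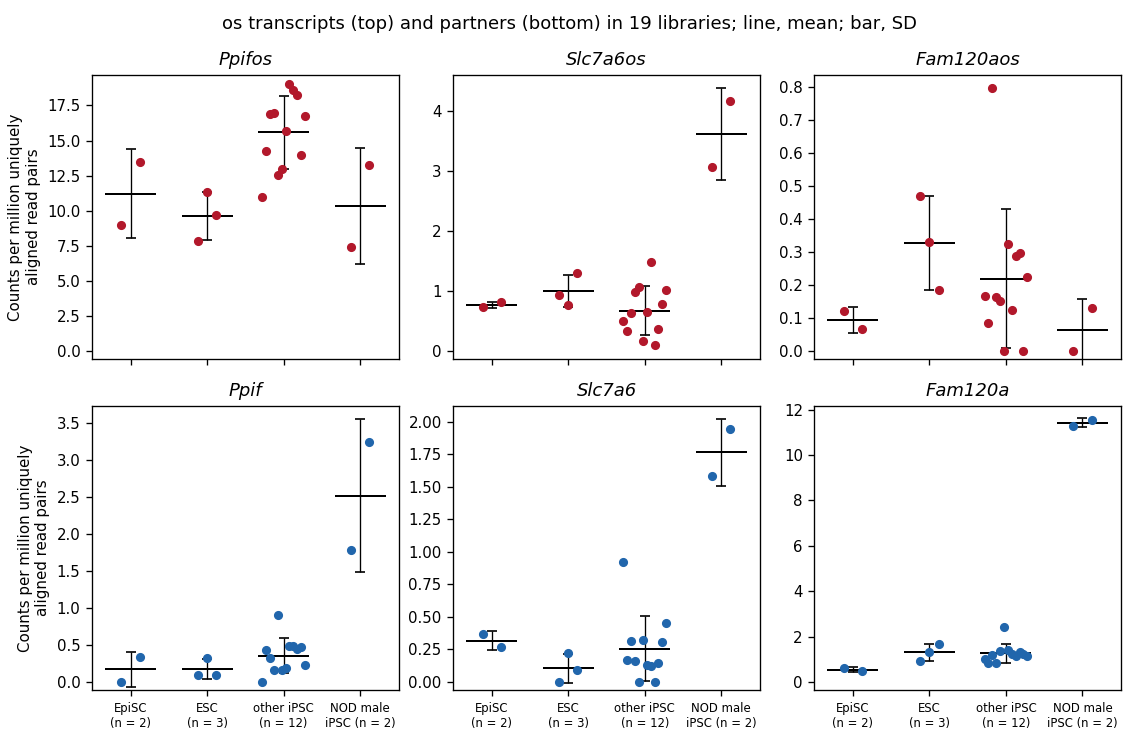
Aligned CPM of 3 os transcripts (top) and their partners (bottom) in EpiSC (n = 2), ESC (n = 3), the 12 other iPSC and the 2 NOD/ShiLtJ male iPSC, with each library as a point, the mean as a line and the SD as a bar. Ppif, Slc7a6, Fam120a and Slc7a6os stand apart upward in the NOD/ShiLtJ males, and Ppifos (7.42 and 13.2) does not.

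Vax2os starts within the first part of Vax2, a homeobox gene of the ventral eye, runs away from it, and shares no exon base with it. Vax2 had 3 counts in all and Vax2os 60. Vax2os was counted in each of the 12 other iPSC (1 to 16), in the NOD/ShiLtJ male clone 35 (3) and in the 129 ESC (1), and was at 0 in clone 3, in the other 2 ESC and in both EpiSC. The highest counts, 16, 10 and 10, came from 129S1/SvImJ male clone 1 in 2iS, the same clone in ESC/LIF and 129S1/SvImJ female clone 5. The other 129S1/SvImJ iPSC libraries had 2 each. Scaled for depth, clone 1 was at 136 CPM in 2iS and 44.8 in ESC/LIF, female clone 5 at 68.9 and WSB/EiJ female clone 28, with 5 counts, at 44.5, so clone 1 in ESC/LIF did not stand above the WSB/EiJ clone.

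Vax2os was below the filter on low counts in the comparison of cell states. Without the filter it was higher in iPSC than in EpiSC (log2 fold change 5.31, SE 1.40, edgeR adjusted p = 0.00290, 11.1% of 16808 genes called) and than in ESC (3.28, SE 0.98, adjusted p = 0.0290, 3.57% called). The EpiSC libraries are at 0, so the first of these values depends on the prior count and is no measure of size. At 1 to 16 counts, most libraries differ by no more than a few read pairs.

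**Figure D4:**
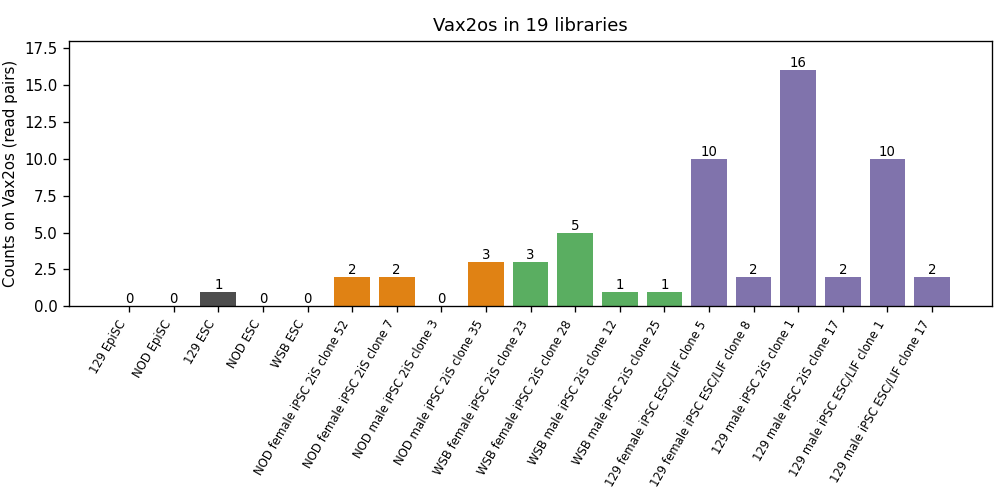
Counts on Vax2os in each of the 19 libraries, as bars coloured by cell state and, in iPSC, strain. The 3 tallest bars (16, 10 and 10) belong to 129S1/SvImJ iPSC, and both EpiSC are at 0.

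The other 8 os transcripts had 0 to 16 counts in all, and their partners 0 to 25. Crxos1, a protein-coding homeobox gene beside the photoreceptor factor Crx, had 3 and 6 counts in the NOD/ShiLtJ males, 3 and 1 in the 129S1/SvImJ males moved to 2iS (clones 17 and 1) and 1 count in each of 3 other libraries. It was at 0 in both EpiSC. Crx had 1 count.

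Dnm3os, the host transcript of microRNAs expressed in mesenchyme, was counted only in ESC of the 19 libraries, with 2 (NOD) and 1 (129). Emx2os, opposite the forebrain homeobox gene Emx2, was also counted only in ESC, with 1 in each of WSB and 129. Without the filter Dnm3os was lower in iPSC than in ESC (edgeR adjusted p = 0.0390, 3.57% of 16808 genes called) and Emx2os did not pass (adjusted p = 0.142). Emx2, with 3 counts that were all in the WSB ESC, had the same edgeR adjusted p of 0.0390. Each of these calls rests on 3 read pairs. The 9 fibroblast markers listed summed to 6.93 to 19.03 aligned CPM in ESC, 2.33 and 4.71 in EpiSC, 0.162 to 1.64 in the 12 other iPSC and 6.10 and 11.7 in the NOD/ShiLtJ males. In the males 5.45 and 10.99 of this was Vim, and Col1a2, Col3a1, Tnc, Ccdc80 and Postn were at 0 in both, while the 3 ESC had counts on each of these. Of the 9 markers, Col1a2, Thy1, Tnc, Ccdc80 and Postn were at 0 in the 12 other iPSC, and the part of these cells in the counts of Dnm3os and Emx2os was not tested. Fewer cells of a type and less RNA per cell cannot be told apart in such libraries.

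Six3os1 had 2 counts in the 129 EpiSC and 2 in 129S1/SvImJ male clone 17 in ESC/LIF, with Six3 at 0. Pax6os1 had 2 counts, both in the NOD EpiSC, beside 8 on Pax6. Foxl2os had 2 counts beside 12 on Foxl2, the forkhead factor of the ovary. Otx2os1 and Dio3os were at 0 in all 19 libraries. Otx2, a homeobox factor of the primed epiblast, had 3 counts in each EpiSC, 0, 3 and 7 in the ESC and 0 to 3 in the iPSC. Dio3, which encodes a thyroid hormone deiodinase, had at most 3 in any library.

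Among cell states, 0 of the 2 os transcripts tested were called in any comparison, by edgeR or by DESeq2, and 0 had an unadjusted p under 0.05. For iPSC against EpiSC 28.3% of 3986 genes were called, for iPSC against ESC 6.22% and for ESC against EpiSC 15.1%, and by DESeq2 25.9%, 5.92% and 14.9%. Ppifos was at 1048 CPM ± 212 (SD, n = 12) in iPSC, 792 ± 117 (SD, n = 3) in ESC and 1134 ± 538 (SD, n = 2) in EpiSC. Its log2 fold change was -0.10 (SE 0.25) for iPSC against EpiSC, 0.40 (SE 0.22) for iPSC against ESC and -0.51 (SE 0.31) for ESC against EpiSC. Slc7a6os was at 45.2 CPM ± 27.9 (SD, n = 12) in iPSC, 81.9 ± 16.7 (SD, n = 3) in ESC and 76.4 ± 20.5 (SD, n = 2) in EpiSC. Its lowest edgeR adjusted p, for iPSC against EpiSC, was 0.268, at a log2 fold change of -0.79 (SE 0.52).

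Of the partners, Fam120a alone passed the filter in these comparisons. It was at 106 CPM ± 14.7 (SD, n = 3) in ESC and 52.3 ± 0.999 (SD, n = 2) in EpiSC, with the 3 ESC above both EpiSC. The difference did not pass (log2 fold change 1.01, SE 0.38, edgeR adjusted p = 0.0795). Scaled to uniquely aligned read pairs, Ppifos was higher in iPSC than in ESC (log2 fold change 0.70, edgeR adjusted p = 0.0315, 8.18% of genes called), where the median of all genes was 0.34. On that scale Fam120a was higher in iPSC than in EpiSC (1.18, edgeR adjusted p = 0.0211, 35.3% called), where the median was 0.62. These comparisons share samples and are not independent. In each that holds iPSC, 129S1/SvImJ male clones 1 and 17 enter in both media, so the iPSC libraries are not all separate clones.

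For the 129S1/SvImJ male clones in 2iS against ESC/LIF, 0 of 3 os transcripts tested were called, by edgeR or DESeq2, and 0 had an unadjusted p under 0.05, with 2.54% of 4457 genes called by edgeR and 1.3% by DESeq2. Ppifos had 243 and 90 counts in ESC/LIF (clones 1 and 17) and 155 and 149 in 2iS. As CPM these were 1046 ± 58.0 (SD, n = 2) and 1216 ± 151 (SD, n = 2), a log2 fold change of 0.19 (SE 0.25, edgeR adjusted p = 0.852). Vax2os had a log2 fold change of 0.95 (SE 0.86, edgeR adjusted p = 0.742) and Slc7a6os of 0.77 (SE 0.58, edgeR adjusted p = 0.670).

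Genes whose symbols end in "as" or "ot" were set beside the os pairs for the share of counts on the opposite strand. GENCODE M21 gives 9 of the 14 "as" genes an "os" symbol, among them Has2as, Igf2as, Nphs1as and Zfhx2as. They are thus no class apart from the os transcripts. Of the 14 "as" genes, Hras1 is a protein-coding gene that matched Hr by symbol only, since they lie on chromosomes 7 and 14. Of the "ot" genes, Leprot and Sox2ot lie on the same strand as their partner. Among the "as" genes that lie opposite their partner in GENCODE M21, 4 pairs had at least 100 counts. In 4 of 4 the pooled share on the antisense gene was lower in the NOD/ShiLtJ males than in the 17 other libraries, as it was in 3 of 3 os pairs. These tallies count direction only. The intervals overlapped for Has2as (82.0 to 90.6 in the 17 and 40.9 to 92.9 in the males) and Slc7a6os (67.6 to 80.5 and 57.0 to 75.7). Slc7a6os and Fam120aos did not pass the permutation tests above. Zfhx2as held 95.7% of the pair with Zfhx2 in the 17 libraries (interval 95.1 to 96.3) and 66.1% in the males (62.7 to 69.3). The 1 "ot" pair that lies on opposite strands with at least 100 counts went the other way. Kcnq1ot1 was at 76.5% of the pair with Kcnq1 in the 17 libraries (68.0 to 83.3) and 97.8% in the males (92.2 to 99.4). A single library held 78 counts on Kcnq1ot1, where the pooled totals were 87 in the males and 88 in the 17 others. Kcnq1 had 2 counts in the males. Over the 5 os pairs with at least 20 counts, summed, the os share was 41.7% and 51.3% in the males and 80.4% to 94.2% in the 17 others. The Ppif pair carried this sum. Without it the mean share was 22.3% in the males and 45.4% in the 17 others, and the median over pairs was 67.0% and 75.1%.

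**Figure D5:**
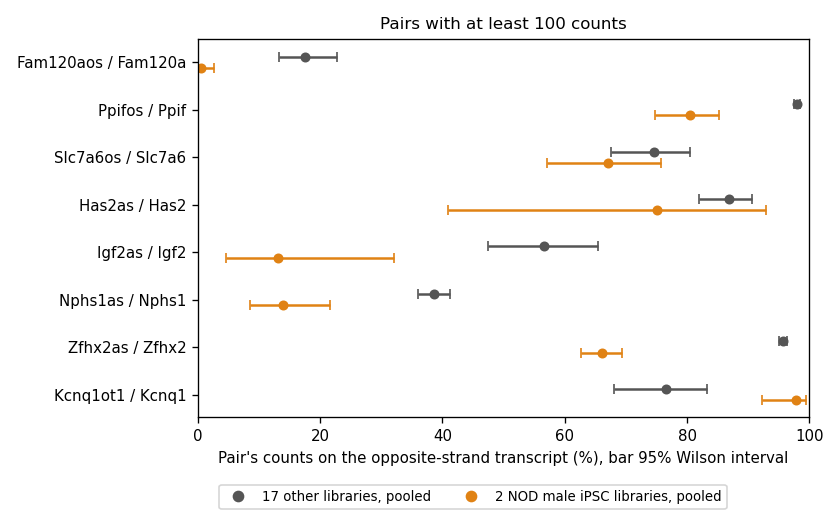
Share of the counts of a pair that fell on the opposite-strand transcript, for the 3 os, 4 as and 1 ot pairs with at least 100 counts, pooled over the 17 other libraries (grey) and the 2 NOD/ShiLtJ male libraries (orange), with 95% Wilson intervals. The intervals do not overlap for Ppifos (97.4 to 98.5 and 74.7 to 85.2) and do for Slc7a6os, and Kcnq1ot1 is the pair whose share was higher in the males.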

How the data were processed

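Libraries came from 14 iPSC, 3 ESC and 2 EpiSC. The authors deposited raw counts of read pairs per gene, without normalization, made with HTSeq (intersection-nonempty) after Trimmomatic and alignment to GRCm38 with TopHat 2.1.1. The strand setting of the counting is not given in the sources used here. Members and lists were chosen with earlier results of these data known. Tests used edgeR 4.0.16 in R 4.3.3 (TMM, filterByExpr, quasi-likelihood F-test, Benjamini-Hochberg adjusted p under 0.05) over all genes that passed the filter. Cell states shared a fit of 3 ESC, 2 EpiSC and the 12 iPSC that are not NOD/ShiLtJ males, NOD/ShiLtJ males were set against 10 iPSC in 5 groups, and media were compared in a fit of 7 groups. Shares used scipy 1.17.1 with 95% Wilson intervals. Genes were matched by symbol to GENCODE M21 (98.4%) for exons and strand. Alternatives were DESeq2 1.42.0, other filters, library sizes and labels, and leaving out libraries. The code was tested on simulated data. The 129S1/SvImJ samples pair by clone, from the labels, and their deviations correlated at 0.0591 over 2276 genes. The named genes were all 12 os transcripts and their partners.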

Additional observations from a re-analysis of the deposited data

Results flagged for a closer look

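Among 30 checks of a highest or lowest library against the others of its group, in groups of 4 to 10 iPSC, 5 were flagged, and chance flags about 1 in 20 groups. The groups share libraries, so the flags are not independent. Among the 10 iPSC other than the NOD/ShiLtJ males and the clones moved to 2iS, Slc7a6 in NOD/ShiLtJ female clone 7 was at 58.2 CPM, where the next highest library was at 22.3. Fam120aos in WSB/EiJ male clone 12 was at 53.3 CPM (10 counts), where the next was at 22.4, and its share of the pair was 40%, where the next was 20%. The share of the pair on Ppifos in WSB/EiJ male clone 25 was 93.3%, where the next lowest of the 10 was 96.8% and the next lowest of the 4 WSB/EiJ iPSC was 98.1%.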

How the results depend on the processing

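Counts of called os transcripts in the 3 comparisons of cell states stayed at 0 when any ESC or EpiSC library was left out (0 to 0), as did the comparison of media. For iPSC against EpiSC the count was 1 (Vax2os) with no filter on low counts and 1 (Vax2os) with the 2 states fitted alone. For iPSC against ESC it was 2 (Dnm3os and Vax2os) with no filter and 1 (Ppifos) scaled to uniquely aligned read pairs. For NOD/ShiLtJ males it was 3 with no filter (Fam120aos, Ppifos and Vax2os, all lower), 2 with uniquely aligned read pairs (Ppifos lower, Slc7a6os higher), 1 to 2 when either male was left out (2, Ppifos and Vax2os, without clone 35) and 0 with the labels of the source names. Under these labels the media comparison gave 1 (Ppifos). With the clone as a replicate block, which the shared clones pair, 0 of 1 tested was called, and the block changed no other call. The os share summed over pairs, 46.5% in the males and 88.8% in the 17 others, was 67.0% and 75.1% as the median over pairs and 22.3% and 45.4% without the Ppif pair, and 41.7% to 51.3% in the males with either left out. Log2 fold changes that changed sign were those of Ppifos, for iPSC against EpiSC (0.48 with uniquely aligned read pairs), iPSC against ESC (-0.16 with source-name labels), ESC against EpiSC (0.086 with these labels) and NOD/ShiLtJ males (0.74 with these labels), of Fam120a with these labels (0.13 for iPSC against ESC and -0.083 for the males), and of Slc7a6os (-0.60 for media with these labels). With 1 library left out, Ppifos ranged from -0.52 (without the NOD EpiSC) to 0.46 (without the 129 EpiSC) for iPSC against EpiSC and from -0.94 to 0.048 (same libraries) for ESC against EpiSC, Slc7a6os from -0.14 (without the NOD EpiSC) to 0.39 for ESC against EpiSC, and Vax2os from -1.31 (without clone 1 in 2iS) to 1.87 for media. The cause of these changes was not tested. At these depths 10 of the 12 os transcripts could not be tested in the comparisons of cell states.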

Other observations

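Of the genes whose symbols end in "as", 4 were tested for the NOD/ShiLtJ males against the other iPSC, and 4 of 4 were lower, where 58.9% of all genes were called and 26.6% were lower, with a median log2 fold change of -2.73 where the median of all genes was 0.27. They were Has2as (-2.73), Nphs1as (-3.57), Peg3as (-2.74) and Zfhx2as (-2.22, SE 0.20, edgeR adjusted p = 1.14e-10), while Zfhx2, the partner of Zfhx2as, was higher (1.18, SE 0.24, edgeR adjusted p = 0.000140). For iPSC against EpiSC, Has2as (log2 fold change -3.18), Msx1as (-3.13) and Peg3as (-2.70, edgeR adjusted p = 4.33e-05) were lower, 3 of 5 tested, where 28.3% of all genes were called. The other 2, Nphs1as (4.44, edgeR adjusted p = 0.0699) and Zfhx2as (0.99, edgeR adjusted p = 0.0712), had positive values and did not pass. Msx1as and Peg3as were not matched to GENCODE M21, and their strand is not used here. Kcnq1ot1, the noncoding RNA of the imprinted Kcnq1 region, was lower in iPSC than in ESC (-2.18, SE 0.41, edgeR adjusted p = 0.00139).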
